A study of Mus musculus with 9 samples.

Results

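Fatty acid uptake and beta-oxidation were described through 36 protein-coding genes of mouse muscle, chosen by gene symbol from a named list of the pathway, out of 55536 genes in the deposited tables. All 36 were found in the tables and all 36 passed the filter on low counts, which kept 14384 genes. The tissue was muscle of male ICR mice, an outbred stock, and RNA sequencing gave 9 libraries in 3 groups of 3. Aged GW8510 mice were 18 months old and received GW8510, a benzenesulfonamide, at 2 mg/kg by intraperitoneal injection every day for 14 days. Aged vehicle mice were also 18 months old and received the vehicle, sodium carboxymethylcellulose. Young vehicle mice were 2 months old and received the same vehicle. The series title names p21-activated kinases as partners of GW8510. Neither the muscle nor the time since the last meal is given, and no label states that every library came from its own animal. The p-values therefore measure the spread among these libraries alone, which may be technical. An effect of the compound at 2 months was not analysed here.

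Long-chain fatty acids reach muscle from lipoproteins and from the circulation, cross the membrane with the help of transporters, and are bound and activated to acyl-CoA in the cytosol. The carnitine shuttle carries the acyl groups into the mitochondrion, where each turn of beta-oxidation removes an acetyl-CoA and passes electrons to the respiratory chain through electron transfer flavoprotein. Oxidative fibres rely on this route more than fast glycolytic fibres do, and several of the genes are known targets of PPAR and PGC-1 regulators, which are also active in fasting.

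Levels of different genes were compared per transcript length, in the TPM values (scaled to length and depth) that the authors deposited. Fabp3, the cytosolic fatty acid binding protein of heart and muscle, averaged 778 TPM over the 9 libraries and was the highest of the 36. Etfb, the beta subunit of electron transfer flavoprotein, averaged 414 TPM, and Hadhb, the thiolase subunit of the mitochondrial trifunctional protein, averaged 314 TPM. Within pairs of related genes the muscle form was the higher one: Cpt1b, the muscle carnitine palmitoyltransferase of the outer membrane, averaged 109.5 TPM and Cpt1a, the liver form, averaged 1.77 TPM. Ucp3, the uncoupling protein enriched in muscle, averaged 38.3 TPM against 11.4 TPM for the widely expressed Ucp2. Of the lipid droplet coat proteins, Plin2 averaged 35.0 TPM and Plin5, the coat of oxidative tissues, 9.27 TPM. The lowest means were those of Angptl4, a secreted inhibitor of lipoprotein lipase, at 1.22 TPM, and Acot1, a cytosolic acyl-CoA thioesterase, at 0.927 TPM.

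**Figure D1:**
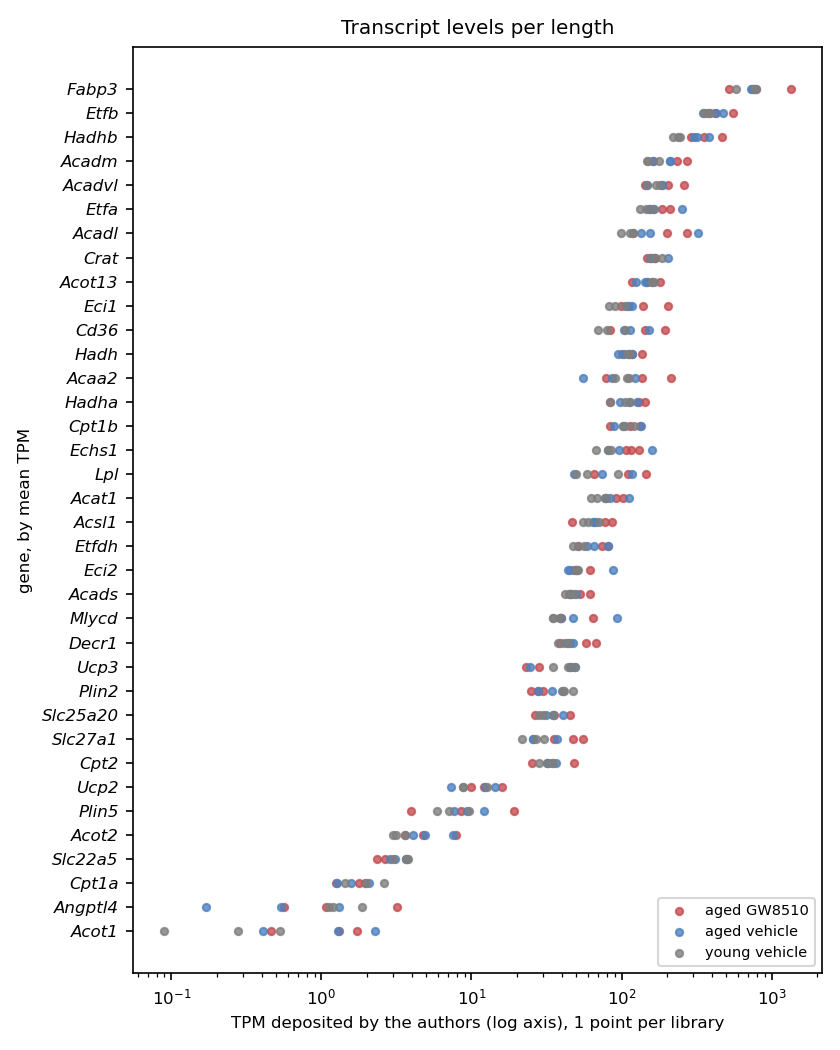
TPM of the 36 genes on a log axis, 1 point per library, with genes ordered by their mean over 9 libraries and points coloured by group (aged GW8510, aged vehicle, young vehicle). Fabp3 is at the top with a mean of 778 TPM and Acot1 at the bottom with a mean of 0.927 TPM.

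Unless TPM is named, all values that follow are CPM (counts scaled to library size), compared between libraries of 1 gene only. They were computed here from the expected counts with TMM-adjusted library sizes. Overlap of libraries was judged in CPM and can differ in the deposited TPM. Cd36, Eci1 and Slc25a20, for example, separate aged GW8510 from young vehicle libraries in CPM but not in TPM. CPM values are listed in the order of libraries 1, 3 and 4 in both aged groups and libraries 2, 3 and 4 in young vehicle muscle. Totals ran from 21718930 to 27437937 counts per library, at which 3 counts, taken as the floor, correspond to 0.109 to 0.138 CPM. Fold changes come from 1 edgeR quasi-likelihood fit over all 9 libraries, with p-values adjusted by Benjamini-Hochberg over all 14384 genes and 0.05 as the threshold. The 10 muscle markers, Acta1 and Ckm among them, summed to between 69630 and 95560 CPM per library.

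Aged GW8510 library 3 stood apart for this pathway and is therefore described before the comparisons. In CPM it was the highest of the 9 libraries for 29 of the 36 genes (80.6%), against 12.7% of all genes tested. In the deposited TPM it led fewer of them, and aged vehicle library 4 was the highest for Acadl, Echs1, Acat1, Etfa, Etfdh and others. The CPM of aged GW8510 library 3 divided by the median of the other 8 libraries ranged from 0.906 to 3.20 over the 36 genes. The median ratio was 1.69, and the ratio passed 1.5 for 25 of them (69.4%) against 10.3% of all genes. The 36 genes summed to 5306, 9321 and 6441 CPM in aged GW8510 libraries, 4981, 6014 and 6231 CPM in aged vehicle libraries and 4403, 4924 and 4732 CPM in young vehicle libraries. The same library had 7605 CPM of Mb, which encodes myoglobin, against 1015 to 4529 CPM in the other 8 libraries. Its Myl3, a slow-fibre myosin light chain, stood at 119 CPM against 0.26 to 22.7 CPM in the others. Of 10 slow and oxidative fibre markers, Mb and Myl3 among them, that library was the highest for 9; the exception was Myh2, a fast oxidative myosin, at 7463 CPM against 7270 to 15640 CPM. That list summed to 15370 CPM there, most of it Myh2 and Mb, within the 8944 to 18850 CPM of the others. Of 10 fast glycolytic fibre markers it was the highest for 1, Myh1, at 9050 CPM against 3093 to 6084 CPM, and the lowest for 2, among them Myh4, at 9506 CPM against 15360 to 38280 CPM. That list summed to 101300 CPM, within the 95780 to 166900 CPM of the others. It was also the highest for 10 of 15 endothelial markers, which summed to 812 CPM against 387 to 652 CPM. Gpihbp1, the endothelial anchor of lipoprotein lipase, was at 66.1 CPM against 17.9 to 34.2 CPM. Of 11 adipocyte markers it was the highest library for 2, Fabp4 at 366 CPM and Pparg at 10.7 CPM, and the lowest for 5, Cfd at 2.61 CPM, Cidec at 0.133 CPM, Pck1 and Plin1 at 0.0886 CPM each and Retn at 0.266 CPM. That list summed to 384 CPM there, against 166 to 401 CPM in the others, and Adipoq was at 0.531 CPM against 0.491 to 18.7 CPM. Whether the muscle sampled, its fibre composition or another property of that library set the pathway's level was not tested, and in bulk muscle more cells of a kind and more RNA per cell cannot be told apart.

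**Figure D2:**
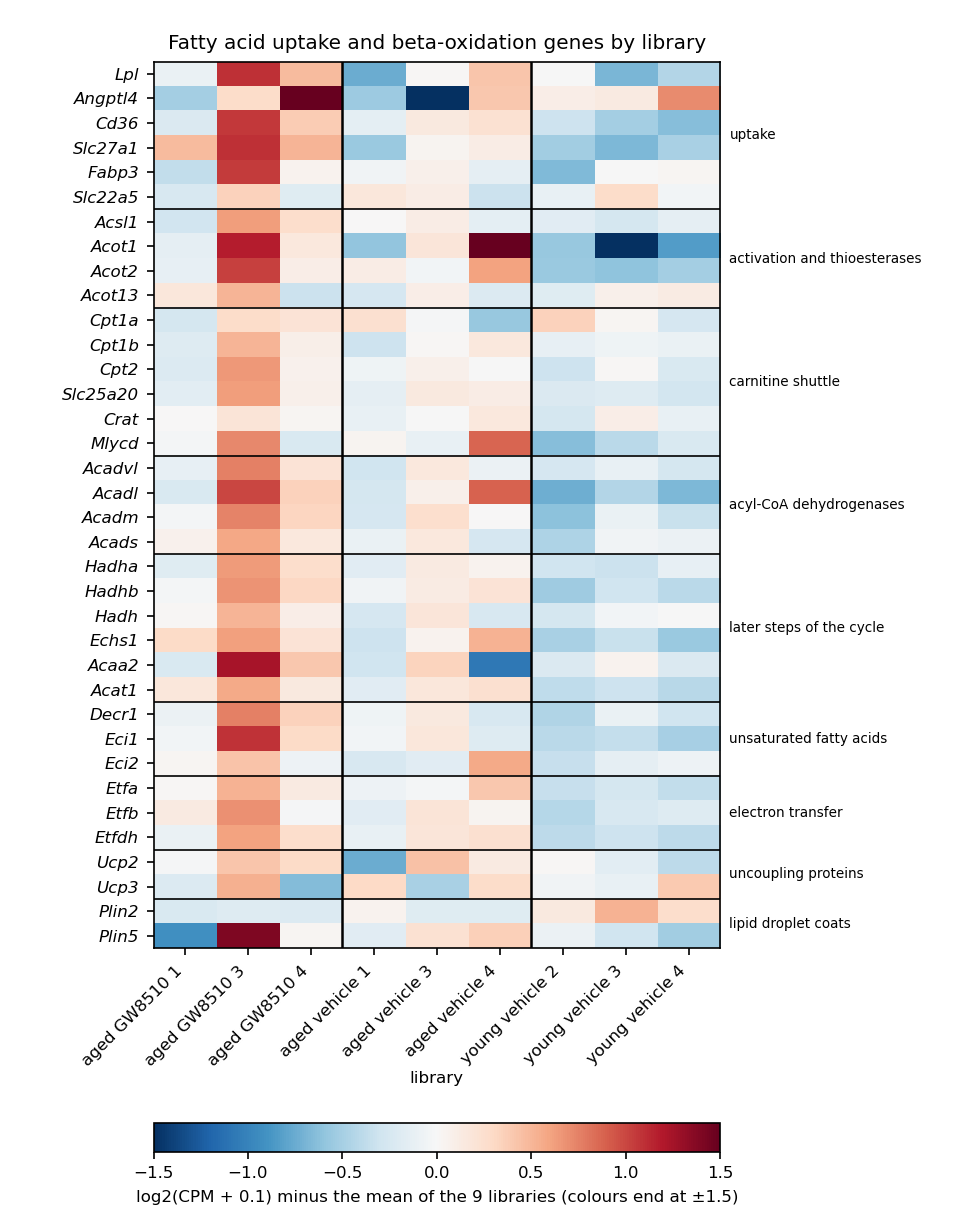
Level of each of the 36 genes in each of the 9 libraries, as log2(CPM + 0.1) minus the gene's mean over the 9 libraries (colours end at 1.5 either way), with genes in rows by role and libraries in columns (aged GW8510 1, 3 and 4, aged vehicle 1, 3 and 4, young vehicle 2, 3 and 4). Aged GW8510 library 3 is above the gene's mean in 35 of 36 rows, and the 3 young vehicle libraries are above it in 4, 8 and 5 rows.

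Aged vehicle library 4 stood apart over the whole transcriptome, with a score of -41.2 on the second principal component against -12.7 to 18.2 for the other 8. Each of these libraries was therefore also left out of the counts that follow; for the counts of non-overlapping libraries and of fold changes above 0, that alternative was chosen after the data were seen.

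The first comparison, aged vehicle against young vehicle muscle, asks what differed with age alone. No gene of the pathway passed the threshold with edgeR (0 of 36), against 1.22% of all genes tested, and none passed with DESeq2 (6.77% of all genes) or limma-voom (1.08%). At an unadjusted p under 0.05 edgeR gave 9 higher genes and 1 lower gene, against 9.07% and 10.1% of all genes. The fold change was above 0 for 29 of 36 genes, against 51.1% of all genes, with a median log2 fold change of 0.27 against 0.0103. Aged vehicle libraries all lay above the young vehicle libraries for 12 genes (33.3%, against 12.7% of all genes) and all lay below them for 1, Plin2 (2.78%, against 13.5%). Electron transfer genes were the role in which every gene had non-overlapping libraries in CPM. Their log2 fold changes were 0.48 for Etfdh, 0.44 for Etfa (0.27 without aged vehicle library 4) and 0.31 for Etfb. In the deposited TPM, Etfa and Etfb overlapped, as did Cd36, Echs1 and Slc25a20 of the 12 genes. Without aged vehicle library 4 the median was 0.24 and the number of genes at an unadjusted p under 0.05 was 1, against 14.3% of all genes.

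The second comparison, aged GW8510 against aged vehicle muscle, asks what differed with the compound. No gene of the pathway passed with edgeR, DESeq2 or limma-voom. Over all genes edgeR also called 0 (0%), with 647 genes at an unadjusted p under 0.05 (4.5%), while DESeq2 called 10 (0.0695%) and limma-voom 0. Slc27a1 was the 1 gene of the pathway at an unadjusted p under 0.05, and it was also the 1 gene whose aged GW8510 libraries all lay above the aged vehicle libraries (2.78%, against 3.89% of all genes). Plin2 was the 1 gene whose aged GW8510 libraries all lay below (2.78%, against 3.33%). The fold change was above 0 for 31 of 36 genes (50.9% of all genes), with a median log2 fold change of 0.25 against 0.00541 over all genes. This depended on aged GW8510 library 3: without it 20 of 36 genes were above 0 (51.5% of all genes) and the median was 0.0278 (0.0109 over all genes). Without aged vehicle library 4, 6 genes had non-overlapping libraries with aged GW8510 higher (7.39% of all genes) and the median was 0.29.

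The third comparison, aged GW8510 against young vehicle muscle, shares its libraries with the other two, so its values are not independent of theirs. Slc27a1 rose and was the 1 of 36 genes past the threshold (2.78%, against 0.751% of all genes). DESeq2 called 10 genes of the pathway, 9 of them higher, against 6.05% of all genes in either direction, and limma-voom called Slc27a1 alone, against 0.73%. Testing without the filter called 3 of the 36 (2.15% of all genes), and the 6 libraries alone called 2 (3.35%). At an unadjusted p under 0.05 edgeR gave 18 higher genes, against 8.51% of all genes, and 1 lower gene, Plin2, against 8.17%. In CPM, aged GW8510 libraries all lay above the young vehicle libraries for 19 genes (52.8%, against 12.9% of all genes) and all below for Plin2 (2.78%, against 12.8%). Of those 19, only Slc27a1, Acadl, Hadhb, Echs1 and Acat1 kept the separation in the deposited TPM. The share over all genes was not computed in TPM. The fold change was above 0 for 33 of 36 genes (51.3% of all genes), with a median log2 fold change of 0.56 against 0.0119. Without aged GW8510 library 3, 30 genes were above 0 (51% of all genes), the median was 0.30 (0.00959 over all genes) and edgeR called 0 (0.168% of all genes), with Slc27a1 at an adjusted p of 0.123 and 9 genes at an unadjusted p under 0.05 (11% of all genes). In the 5 libraries then left, aged GW8510 lay above young vehicle for 19 genes (16.3% of all genes), a count that leaving out a library cannot lower. Without aged vehicle library 4, which is in neither group and enters through the shared estimate of spread, edgeR called 3 genes, Slc27a1, Echs1 and Acat1 (8.33%, against 4% of all genes).

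**Figure D3:**
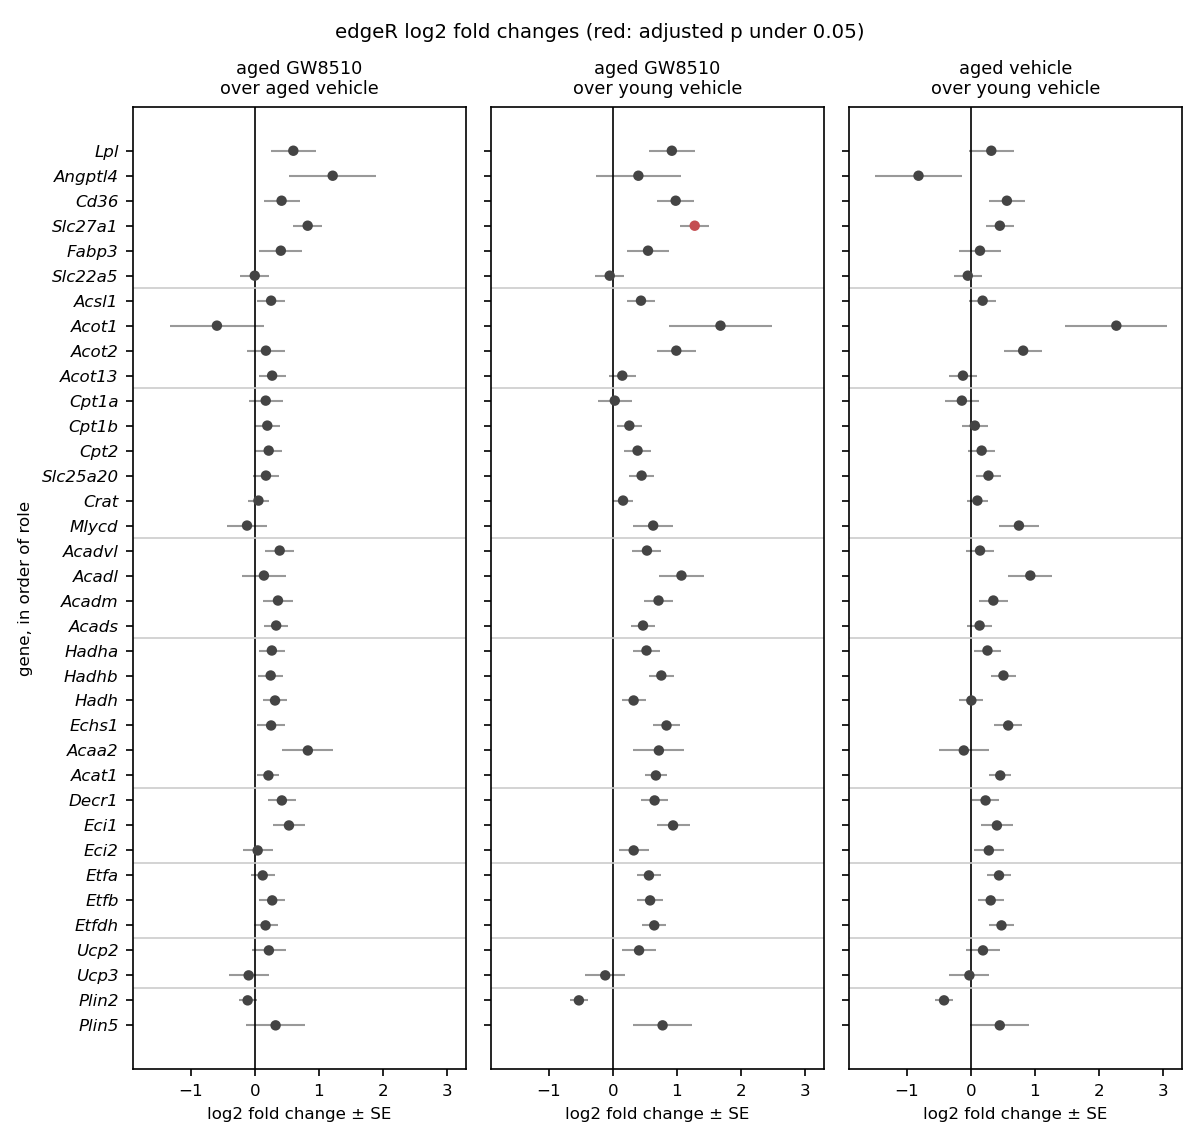
Log2 fold change of each of the 36 genes in the 3 comparisons, with points for the edgeR estimate and bars for the SE, grouped by role. The red point is the value past an adjusted p of 0.05, which is Slc27a1 in aged GW8510 over young vehicle (1.28), and Plin2 lies below 0 in all 3 comparisons.

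Uptake begins at the capillary wall, where Lpl, lipoprotein lipase, frees fatty acids from lipoproteins. Slc27a1 (FATP1) is a membrane transporter with acyl-CoA synthetase activity. Its levels were 84.8, 131 and 87.2 CPM in aged GW8510 libraries, 41.6, 62.9 and 66.1 CPM in aged vehicle libraries and 42.6, 38.3 and 43.7 CPM in young vehicle libraries. In CPM all 3 aged GW8510 libraries exceeded every library of the other groups, and aged vehicle libraries overlapped the young ones. In the deposited TPM, aged GW8510 library 1 (35.3) lay below aged vehicle library 4 (37.2), and aged GW8510 libraries still lay above the young ones. Against young vehicle the level was 2.43-fold higher, a log2 fold change of 1.28 ± 0.22 (SE, adjusted p = 0.0321), and the authors' deposited table gives it a log2 ratio of 1.283 with an adjusted p of 7.189e-08. The edgeR call was kept without aged GW8510 library 4 (adjusted p = 0.0484) and without each aged vehicle library (0.0137 to 0.0426). It was lost without aged GW8510 library 1 (0.0632) or 3 (0.123) and without young vehicle library 2 (0.113), 3 (0.143) or 4 (0.119), with log2 fold changes of 1.05 to 1.39 over all 9 omissions. Against aged vehicle the log2 fold change was 0.83 ± 0.22 (SE, adjusted p = 0.934), and for aged vehicle over young vehicle it was 0.45 ± 0.22 (SE, adjusted p = 0.297).

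Because Slc27a1 carried the 1 call, the 250 bases before each of its 3 RefSeq start sites are shown, on the plus strand of GRCm38.p6. Capitals mark CACGTG, an E-box, and CCAAT on either strand. In order, the windows are chr8:71568621-71568870, chr8:71569347-71569596 and chr8:71570344-71570593.
Slc27a1 start 1: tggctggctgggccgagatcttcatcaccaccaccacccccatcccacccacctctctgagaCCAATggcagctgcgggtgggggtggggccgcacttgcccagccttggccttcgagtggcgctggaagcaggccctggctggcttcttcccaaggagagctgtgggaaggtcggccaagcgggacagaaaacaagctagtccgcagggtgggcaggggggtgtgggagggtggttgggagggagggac
Slc27a1 start 2: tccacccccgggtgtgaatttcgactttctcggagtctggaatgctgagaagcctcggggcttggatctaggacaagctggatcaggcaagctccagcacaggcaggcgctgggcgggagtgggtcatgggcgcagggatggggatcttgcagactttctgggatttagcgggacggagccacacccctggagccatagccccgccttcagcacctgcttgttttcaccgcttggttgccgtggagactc
Slc27a1 start 3: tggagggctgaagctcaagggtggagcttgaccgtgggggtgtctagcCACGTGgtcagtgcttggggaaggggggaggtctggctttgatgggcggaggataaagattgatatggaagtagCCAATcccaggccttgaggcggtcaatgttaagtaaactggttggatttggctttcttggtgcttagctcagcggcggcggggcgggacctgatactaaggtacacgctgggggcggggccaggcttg
RefSeq windows were found for 28 of the 36 genes, in 32 windows. CACGTG was found in 1 of the 32 windows, before a start of Slc27a1, and in 6.02% of all 32851 windows. CCAAT was found for 14 genes, in 15 of the 32 windows, and in 33.8% of all windows. The nuclear receptor half-site AGGTCA was found for 8 genes (Acadm, Acadvl, Cd36, Cpt1a, Echs1, Plin2, Plin5 and Ucp3), in 8 of the 32 windows, and in 14% of all windows. The direct repeat AGGTCANAGGTCA, to which PPAR and RXR bind, and TCAAGGTCA, the element of ERR receptors, which contains AGGTCA, were in the windows of none of the 28 genes and in 0.0335% and 0.387% of all windows. Both strands were searched, and a match describes letters only.

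Fabp3 had 318, 848 and 426 CPM in aged GW8510 libraries, 396, 433 and 372 CPM in aged vehicle libraries and 258, 409.5 and 419.7 CPM in young vehicle libraries. The highest value was aged GW8510 library 3 and the groups overlapped, with log2 fold changes of 0.55 ± 0.33 (SE, adjusted p = 0.443) for aged GW8510 over young vehicle and 0.41 ± 0.33 (SE, adjusted p = 0.934) over aged vehicle, which were 0.039 and -0.11 without aged GW8510 library 3. Angptl4 was low throughout, with 1.27, 2.26 and 5.83 CPM in aged GW8510 libraries, 1.24, 0.327 and 2.47 CPM in aged vehicle libraries and 1.98, 2.03 and 3.08 CPM in young vehicle libraries. Aged vehicle library 3 held 8 counts of it and aged GW8510 library 4 held 131, and the groups overlapped in every comparison. Its log2 fold change of 1.22 ± 0.68 (SE, adjusted p = 0.934) for aged GW8510 over aged vehicle was the largest of the 36 genes in that comparison and moved between 0.39 and 1.97 when single libraries were left out. Cd36, a fatty acid translocase, ranged from 239 to 582 CPM in aged GW8510, from 251 to 327 CPM in aged vehicle and from 179 to 225 CPM in young vehicle libraries, so both aged groups lay above the young one. Its log2 fold change was 0.98 ± 0.28 (SE, adjusted p = 0.123) for aged GW8510 over young vehicle (0.59 without aged GW8510 library 3) and 0.56 ± 0.28 (SE, adjusted p = 0.306) for aged vehicle over young vehicle. Lpl ranged from 264 to 607 CPM in aged GW8510, from 169 to 377 CPM in aged vehicle and from 177 to 282 CPM in young vehicle libraries, with overlap in all comparisons. Slc22a5 (OCTN2), the carnitine importer, stayed between 6.45 and 10.4 CPM over the 9 libraries.

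Activation and thioesterase genes include Acsl1, the main long-chain acyl-CoA synthetase of muscle, and Acot2, a mitochondrial thioesterase that frees fatty acids from their CoA. Acot2 had 7.67, 17.2 and 8.99 CPM in aged GW8510 libraries, 9.09, 8.18 and 12.8 CPM in aged vehicle libraries and 5.68, 5.50 and 5.85 CPM in young vehicle libraries. In CPM every aged library of both groups exceeded all 3 young ones. In the deposited TPM, aged GW8510 library 1 (3.61) lay just below young vehicle library 2 (3.62). The log2 fold changes were 0.99 ± 0.30 (SE, adjusted p = 0.138) for aged GW8510 over young vehicle and 0.82 ± 0.30 (SE, adjusted p = 0.193) for aged vehicle over young vehicle; the first was 0.55 without aged GW8510 library 3. Its neighbour Acot1 had 0.636, 1.73 and 0.801 CPM in aged GW8510 libraries, 0.436, 0.818 and 3.55 CPM in aged vehicle libraries and 0.445, 0.169 and 0.351 CPM in young vehicle libraries, from expected counts of 4.11 to 81.8. Aged vehicle library 4 was the highest, and the log2 fold change of 2.27 ± 0.80 (SE, adjusted p = 0.18) for aged vehicle over young vehicle was 0.93 without it. Counts of Acot1 and Acot2 were fractional in all 9 libraries, and 23.5% of the 50-base words of Acot1 transcripts occur in Acot2, so the split between them is uncertain. Summed, the pair gave a log2 fold change of 1.04 for aged GW8510 over young vehicle (adjusted p = 0.157), 0.09 for aged GW8510 over aged vehicle (adjusted p = 0.985) and 0.95 for aged vehicle over young vehicle (adjusted p = 0.176). Acot13, a thioesterase of the mitochondrial surface, had 74.0, 93.9 and 52.4 CPM in aged GW8510 libraries, 55.1, 70.5 and 56.9 CPM in aged vehicle libraries and 58.0, 69.2 and 71.5 CPM in young vehicle libraries. Its groups overlapped, with log2 fold changes of 0.15 ± 0.21 (SE, adjusted p = 0.762) for aged GW8510 over young vehicle, 0.27 for aged GW8510 over aged vehicle and -0.12 for aged vehicle over young vehicle; without aged GW8510 library 3 the first 2 were -0.067 and 0.054. Acsl1 ranged from 185 to 349 CPM in aged GW8510, from 203 to 244 CPM in aged vehicle and from 188 to 205 CPM in young vehicle libraries, with overlap in each comparison.

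The carnitine shuttle had lower median log2 fold changes than the uptake genes and the later steps of the cycle, the other roles with 6 genes. They were 0.32 for aged GW8510 over young vehicle, 0.17 for aged GW8510 over aged vehicle and 0.14 for aged vehicle over young vehicle. Crat, which moves acetyl groups between CoA and carnitine, had 548, 620.0 and 553 CPM in aged GW8510 libraries, 504, 543 and 606 CPM in aged vehicle libraries and 454, 584 and 501 CPM in young vehicle libraries. These libraries overlapped in every comparison, and the log2 fold change for aged GW8510 over young vehicle was 0.16 ± 0.16 (SE, adjusted p = 0.649), and 0.062 to 0.26 when single libraries were left out. Cpt1b ranged from 239 to 389 CPM in aged GW8510, from 221 to 304 CPM in aged vehicle and from 251 to 261 CPM in young vehicle libraries, all overlapping. Cpt1a and Cpt2, the inner-membrane transferase, overlapped as well, with log2 fold changes of 0.031 for Cpt1a and 0.39 for Cpt2 in aged GW8510 over young vehicle; without aged GW8510 library 3 they were -0.07 for Cpt1a and 0.11 for Cpt2. Slc25a20, the carnitine-acylcarnitine carrier, stood at 44.5 to 77.2 CPM in aged GW8510 and 45.4 to 55.3 CPM in aged vehicle libraries, both above the 41.2 to 43.5 CPM of young vehicle libraries. Mlycd, which degrades malonyl-CoA, an inhibitor of the shuttle, ranged from 69.8 to 135 CPM in aged GW8510, 75.7 to 149.7 CPM in aged vehicle and 52.5 to 69.4 CPM in young vehicle libraries. Its log2 fold change was 0.63 ± 0.31 (SE, adjusted p = 0.338) for aged GW8510 over young vehicle and 0.75 ± 0.31 (SE, adjusted p = 0.23) for aged vehicle over young vehicle. The first was 0.29 without aged GW8510 library 3, and the second 0.38 without aged vehicle library 4.

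The acyl-CoA dehydrogenases catalyse the opening step of each turn and differ in chain length preference. Acadl, the long-chain enzyme, had 217, 509.5 and 323 CPM in aged GW8510 libraries, 212, 268 and 470.1 CPM in aged vehicle libraries and 153, 187 and 159 CPM in young vehicle libraries. All 6 aged libraries exceeded the young ones, and aged GW8510 library 3 and aged vehicle library 4 were the highest. The log2 fold changes were 1.07 ± 0.35 (SE, adjusted p = 0.162) for aged GW8510 over young vehicle, 0.14 ± 0.34 (SE, adjusted p = 0.977) for aged GW8510 over aged vehicle and 0.93 ± 0.35 (SE, adjusted p = 0.197) for aged vehicle over young vehicle. The sign of the middle value turned without aged GW8510 library 3 (-0.23) and without aged vehicle library 1 (-0.08). The first was 0.70 without aged GW8510 library 3, and the last 0.53 without aged vehicle library 4. In the authors' deposited table Acadl is marked as significant in aged GW8510 over young vehicle, with a log2 ratio of 1.075 and an adjusted p of 0.001824. With Slc27a1 it is 1 of 2 genes of the pathway marked there, against 729 of 24274 genes with a test. None is marked over aged vehicle (6 of 24380) or with age alone (653 of 24598). The mark does not follow the deposited adjusted p alone. Both marked log2 ratios of the pathway are above 1. Every unmarked gene of the pathway with a deposited adjusted p under 0.05 has an absolute log2 ratio under 1. The largest of these is Acot2 in aged GW8510 over young vehicle, at 0.9955. Against young vehicle with the compound, Echs1 (log2 ratio 0.8414, adjusted p 7.045e-05) and Hadhb (0.7599, 0.004166) are unmarked. Acadl is unmarked with age alone at a deposited adjusted p of 0.04475. Acadm, the medium-chain enzyme, had 312, 535 and 400.2 CPM in aged GW8510 libraries, 268, 381 and 322 CPM in aged vehicle libraries and 208, 298 and 254 CPM in young vehicle libraries. Its aged GW8510 libraries lay above all young libraries while aged vehicle libraries overlapped them, with log2 fold changes of 0.71 ± 0.23 (SE, adjusted p = 0.163) and 0.35 ± 0.23 (SE, adjusted p = 0.423) over young vehicle; the second was 0.22 to 0.49 when single libraries were left out. Acads, the short-chain enzyme, had 78.2, 112 and 83.4 CPM in aged GW8510 libraries, 70.1, 83.9 and 63.0 CPM in aged vehicle libraries and 54.4, 72.4 and 70.5 CPM in young vehicle libraries. The log2 fold change of Acads was 0.47 ± 0.19 (SE, adjusted p = 0.25) for aged GW8510 over young vehicle, without overlap, and 0.33 ± 0.19 (SE, adjusted p = 0.934) for aged GW8510 over aged vehicle, with overlap; without aged GW8510 library 3 they were 0.30 and 0.16. Acadvl, the very-long-chain enzyme of the inner membrane, ranged from 298 to 549 CPM in aged GW8510, from 265 to 363 CPM in aged vehicle and from 271 to 300.1 CPM in young vehicle libraries, overlapping in each comparison.

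Hydration, the dehydrogenation that follows and thiolysis are carried out by Hadha and Hadhb, the subunits of the trifunctional protein, on long chains, and by Echs1, Hadh and Acaa2 on shorter ones. Hadhb had 421, 686 and 534 CPM in aged GW8510 libraries, 415, 468 and 497 CPM in aged vehicle libraries and 298, 348 and 324 CPM in young vehicle libraries. Every aged library exceeded the 3 young ones, with log2 fold changes of 0.76 ± 0.19 (SE, adjusted p = 0.0918) for aged GW8510 over young vehicle and 0.51 ± 0.19 (SE, adjusted p = 0.203) for aged vehicle over young vehicle. Hadha ranged from 277 to 489.8 CPM in aged GW8510, from 280.3 to 344 CPM in aged vehicle and from 251 to 288 CPM in young vehicle libraries, and overlapped in each comparison.

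Hadha and Hadhb are transcribed away from each other, from RefSeq starts at 30154980 and 30155253 on chromosome 5 with 272 bases between them. The 250 bases before Hadha are shown because they hold 228 bases that also precede Hadhb, at chr5:30154981-30155230 on the minus strand of GRCm38.p6, and none of the motifs searched was found in them, so no letters are in capitals.
Hadha: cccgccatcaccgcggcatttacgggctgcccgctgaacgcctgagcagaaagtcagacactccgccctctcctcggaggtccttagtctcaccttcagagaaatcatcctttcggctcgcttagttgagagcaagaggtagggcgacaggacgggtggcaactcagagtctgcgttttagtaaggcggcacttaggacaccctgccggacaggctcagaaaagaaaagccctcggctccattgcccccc

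Echs1, the short-chain enoyl-CoA hydratase, had 153, 193 and 146 CPM in aged GW8510 libraries, 101, 130.5 and 180.4 CPM in aged vehicle libraries and 89.5, 100.1 and 85.5 CPM in young vehicle libraries. In CPM, aged libraries of both groups lay above the young ones, with log2 fold changes of 0.84 ± 0.22 (SE, adjusted p = 0.0923) for aged GW8510 over young vehicle and 0.58 ± 0.21 (SE, adjusted p = 0.192) for aged vehicle over young vehicle, the second 0.34 without aged vehicle library 4. In the deposited TPM, Echs1 in aged vehicle library 1 (81.46) lay below young vehicle library 2 (85). Acat1, the mitochondrial acetoacetyl-CoA thiolase, had 247, 326 and 243 CPM in aged GW8510 libraries, 195, 248 and 261 CPM in aged vehicle libraries and 169.5, 177 and 165 CPM in young vehicle libraries. It showed the same separation of aged from young libraries, with log2 fold changes of 0.67 ± 0.17 (SE, adjusted p = 0.0918) for aged GW8510 over young vehicle, 0.21 ± 0.17 (SE, adjusted p = 0.934) for aged GW8510 over aged vehicle (0.062 without aged GW8510 library 3) and 0.46 ± 0.17 (SE, adjusted p = 0.197) for aged vehicle over young vehicle. Acaa2, the mitochondrial thiolase, had 109, 301 and 169 CPM in aged GW8510 libraries, 104, 161 and 60.4 CPM in aged vehicle libraries and 109, 132 and 109.6 CPM in young vehicle libraries. Aged GW8510 library 3 was the highest and aged vehicle library 4 the lowest, and the groups overlapped. The log2 fold change was 0.83 ± 0.40 (SE, adjusted p = 0.934) for aged GW8510 over aged vehicle, and 0.35 to 1.23 when single libraries were left out. Hadh, which dehydrogenates medium and short chains, ranged from 168 to 236 CPM in aged GW8510, from 139 to 187 CPM in aged vehicle and from 138 to 165 CPM in young vehicle libraries, so only aged GW8510 lay above young vehicle without overlap.

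**Figure D4:**
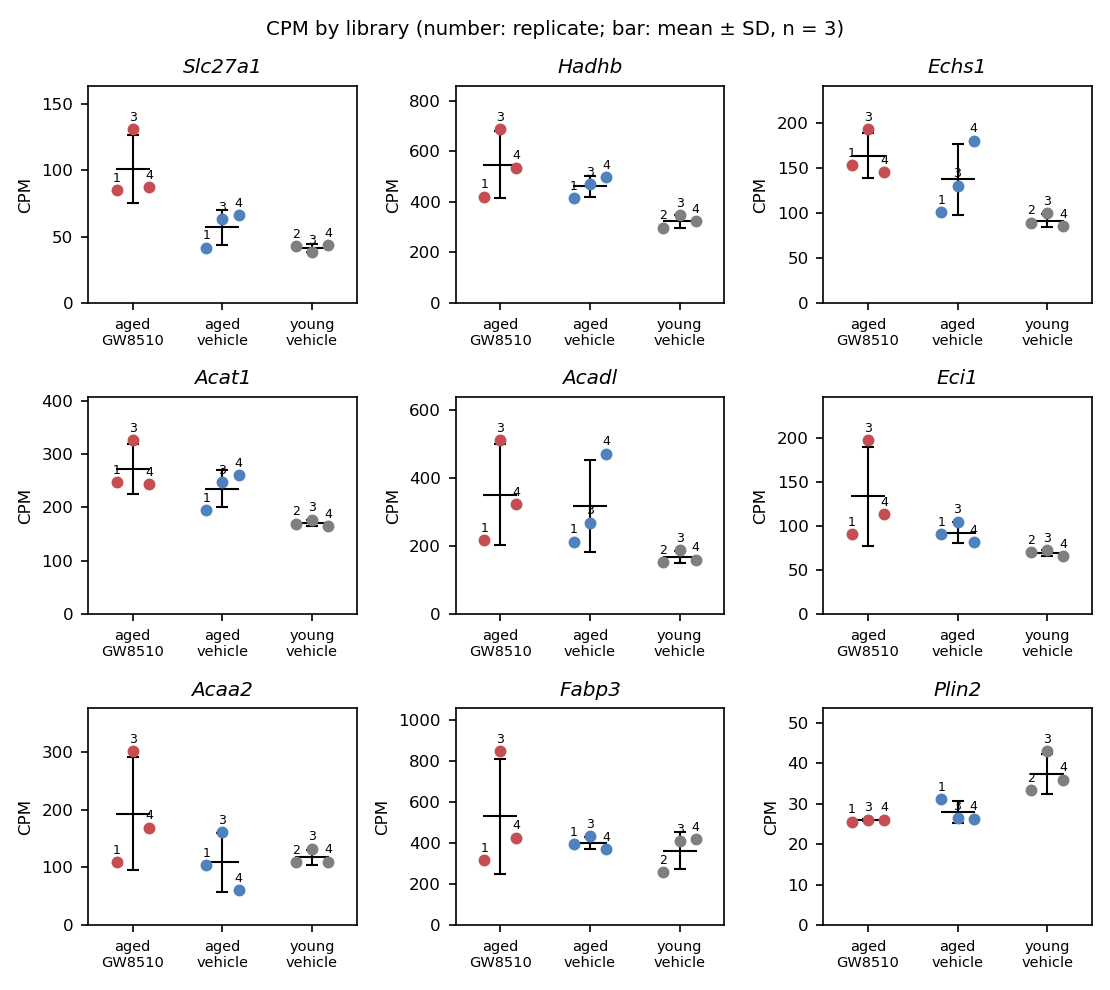
CPM of 9 of the genes by library and group (aged GW8510, aged vehicle, young vehicle), with 1 point per library labelled by its number and bars for the mean ± SD (n = 3); each panel has its own linear axis from 0. Slc27a1 is highest in the 3 aged GW8510 libraries (84.8 to 131 CPM), and Plin2 is highest in the 3 young vehicle libraries (33.3 to 42.9 CPM).

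Unsaturated fatty acids need Eci1 and Eci2, the enoyl-CoA isomerases, and Decr1, the dienoyl-CoA reductase. Eci1 had 90.4, 197 and 114 CPM in aged GW8510 libraries, 90.6, 105 and 81.4 CPM in aged vehicle libraries and 70.2, 72.5 and 65.9 CPM in young vehicle libraries. Both aged groups lay above the young group, with aged GW8510 library 3 the highest. The log2 fold changes were 0.94 ± 0.26 (SE, adjusted p = 0.106) for aged GW8510 over young vehicle, 0.53 ± 0.26 (SE, adjusted p = 0.934) for aged GW8510 over aged vehicle and 0.41 ± 0.26 (SE, adjusted p = 0.402) for aged vehicle over young vehicle. Without aged GW8510 library 3 the first 2 were 0.55 and 0.14. Decr1 had 114, 204 and 154 CPM in aged GW8510 libraries, 116, 134 and 102 CPM in aged vehicle libraries and 88.9, 113 and 98.3 CPM in young vehicle libraries. Its aged GW8510 libraries exceeded the young ones by a narrow margin and overlapped those of aged vehicle, with log2 fold changes of 0.65 ± 0.22 (SE, adjusted p = 0.168) and 0.42 ± 0.22 (SE, adjusted p = 0.934), which were 0.42 and 0.19 without aged GW8510 library 3. Eci2 ranged from 54.2 to 76.9 CPM in aged GW8510, from 48.1 to 84.6 CPM in aged vehicle and from 44.9 to 54.0 CPM in young vehicle libraries.

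Electron transfer flavoprotein, made of the Etfa and Etfb products, hands electrons from the dehydrogenases to the Etfdh product in the inner membrane. Etfb had 184, 271 and 165 CPM in aged GW8510 libraries, 149, 191 and 173 CPM in aged vehicle libraries and 124, 142 and 147 CPM in young vehicle libraries. In CPM both aged groups lay above the young group for all 3 of these genes. The deposited TPM did not keep this separation from young vehicle library 2. Etfb was 382 in aged GW8510 library 1 and 351 in aged vehicle library 1, against 386 TPM. Etfa was 152 in aged GW8510 library 1 and 155 in aged vehicle library 3, against 161 TPM. Etfdh was 51.6 in aged GW8510 library 1 against 56.6 TPM, while its aged vehicle libraries stayed above the young ones. Log2 fold changes for aged GW8510 over young vehicle were 0.58 ± 0.20 (SE, adjusted p = 0.183) for Etfb, 0.56 ± 0.19 (SE, adjusted p = 0.168) for Etfa and 0.65 ± 0.19 (SE, adjusted p = 0.125) for Etfdh; that of Etfb was 0.34 without aged GW8510 library 3. Etfa ranged from 187 to 268 CPM in aged GW8510, from 176 to 246 CPM in aged vehicle and from 144 to 155 CPM in young vehicle libraries. Etfdh ranged from 119 to 194 CPM in aged GW8510, from 118 to 151 CPM in aged vehicle and from 97.0 to 103 CPM in young vehicle libraries.

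Uncoupling proteins sit in the inner mitochondrial membrane, and Ucp3 is commonly raised by fatty acids. Ucp3 had 66.5, 111 and 49.0 CPM in aged GW8510 libraries, 94.7, 54.7 and 92.6 CPM in aged vehicle libraries and 73.9, 70.8 and 101 CPM in young vehicle libraries. Its groups overlapped, with log2 fold changes of -0.12 ± 0.31 (SE, adjusted p = 0.88) for aged GW8510 over young vehicle and -0.022 for aged vehicle over young vehicle. Both turned positive without young vehicle library 4, at 0.06 and 0.16. Ucp2 ranged from 16.5 to 22.4 CPM in aged GW8510, from 9.93 to 22.6 CPM in aged vehicle and from 12.7 to 16.9 CPM in young vehicle libraries.

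With all libraries the lipid droplet coats had fold changes of opposite sign, but without aged GW8510 library 3 Plin5 was below 0 as well in aged GW8510 over young vehicle and over aged vehicle. Plin2 had 25.6, 26.1 and 26.0 CPM in aged GW8510 libraries, 31.1, 26.4 and 26.3 CPM in aged vehicle libraries and 33.3, 42.9 and 36.0 CPM in young vehicle libraries. The 3 aged GW8510 libraries lay close together and below every library of the other groups, and aged vehicle libraries lay below the young ones. The margin to aged vehicle was narrow, 26.1 against 26.3 CPM. In the deposited TPM, aged GW8510 libraries 1 (27.78) and 4 (29.77) lay above aged vehicle library 3 (27.68). The log2 fold changes were -0.53 ± 0.14 (SE, adjusted p = 0.103) for aged GW8510 over young vehicle, -0.11 ± 0.14 (SE, adjusted p = 0.954) for aged GW8510 over aged vehicle and -0.42 ± 0.14 (SE, adjusted p = 0.169) for aged vehicle over young vehicle. Aged GW8510 library 3 did not stand apart for Plin2, and without it the value for aged GW8510 over young vehicle was -0.53. Plin5 ranged from 7.49 to 37.6 CPM in aged GW8510, from 12.6 to 18.3 CPM in aged vehicle and from 9.87 to 13.3 CPM in young vehicle libraries, with both the lowest and the highest value among the aged GW8510 libraries. Its log2 fold change for aged GW8510 over aged vehicle was 0.33 ± 0.46 (SE, adjusted p = 0.956), and -0.53 without aged GW8510 library 3.

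**Figure D5:**
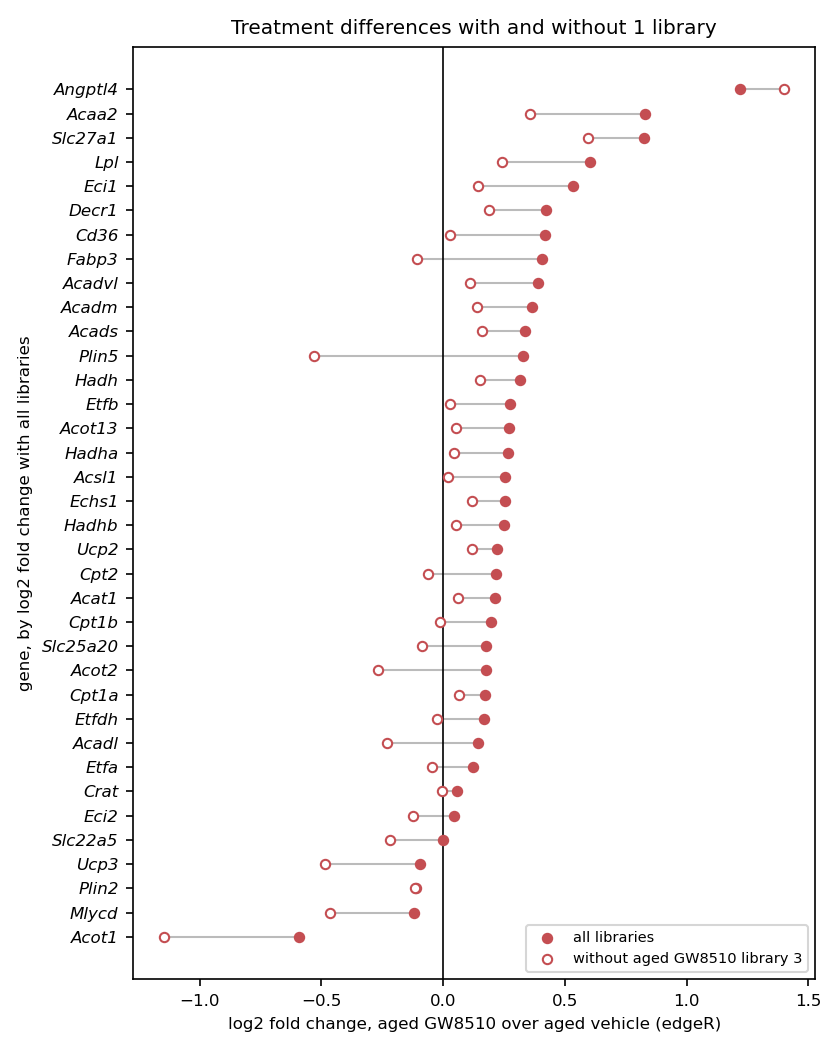
Log2 fold change of each of the 36 genes for aged GW8510 over aged vehicle, with all libraries (filled points) and without aged GW8510 library 3 (open points), joined by a line per gene and ordered by the filled points. With all libraries 31 genes are above 0 and the median is 0.25; without that library 20 are above 0 and the median is 0.0278.

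Genes around the pathway, taken from separate lists, gave 1 call with edgeR. Of 30 further fatty acid oxidation genes, 0 passed in any comparison, with 9, 4 and 5 at an unadjusted p under 0.05 and 4, 0 and 1 called by DESeq2 against young vehicle with the compound, against aged vehicle with the compound and with age alone, in that order. Their median log2 fold changes were 0.11, 0.03 and 0.06 in these comparisons. Of 19 lipid storage and lipolysis genes 0 passed, with medians of 0.14, 0.29 and -0.0031 in the same order. At an unadjusted edgeR p under 0.05 were 4, 3 and 4 of the 19, and DESeq2 called 1, 0 and 0. The shares of all genes beside these counts are the ones just given. Limma-voom called none of either list. Among 24 PPAR, PGC-1 and fasting regulators, 1 passed, Pparg, the PPAR best known from adipocytes, in aged GW8510 over young vehicle. Pparg had 4.77, 10.7 and 7.57 CPM in aged GW8510 libraries, 3.85, 4.62 and 3.38 CPM in aged vehicle libraries and 2.53, 1.78 and 2.54 CPM in young vehicle libraries. Every aged GW8510 library exceeded every other library, and the log2 fold change over young vehicle was 1.75 ± 0.31 (SE, adjusted p = 0.0355), 1.43 without aged GW8510 library 3 (adjusted p = 0.132). That call was also lost without aged GW8510 library 4 (0.0617), aged vehicle library 1 (0.0623) or young vehicle library 2 (0.112), 3 (0.143) or 4 (0.115), and with limma-voom (0.0607). Ppargc1a, which encodes the coactivator PGC-1 alpha, had 27.7, 24.6 and 77.8 CPM in aged GW8510 libraries, 15.5, 23.7 and 19.1 CPM in aged vehicle libraries and 18.3, 13.9 and 17.8 CPM in young vehicle libraries. Its highest library was aged GW8510 library 4, not library 3, and the log2 fold change over young vehicle was 1.38 ± 0.40 (SE, adjusted p = 0.123), and 0.64 without aged GW8510 library 4. Ppara, the PPAR most tied to fatty acid oxidation, had 7.76, 14.7 and 23.6 CPM in aged GW8510 libraries, 7.82, 13.0 and 6.80 CPM in aged vehicle libraries and 8.38, 6.55 and 6.51 CPM in young vehicle libraries, a log2 fold change of 1.10 ± 0.38 (SE, adjusted p = 0.18) for aged GW8510 over young vehicle that was 0.64 without aged GW8510 library 4. Ppard had 18.7, 21.0 and 24.6 CPM in aged GW8510 libraries, 21.4, 22.2 and 25.2 CPM in aged vehicle libraries and 25.8, 25.9 and 22.5 CPM in young vehicle libraries, with overlap of aged GW8510 and aged vehicle libraries and a log2 fold change of -0.21 ± 0.15 (SE, adjusted p = 0.519) over young vehicle, which was -0.33 to -0.12 when single libraries were left out. Pdk4, the kinase that shuts pyruvate oxidation in fasting, varied widely within each group, with 112, 408 and 193 CPM in aged GW8510 libraries, 230.1, 59.0 and 322 CPM in aged vehicle libraries and 145, 292 and 184 CPM in young vehicle libraries. Its log2 fold change was 0.20 ± 0.60 (SE, adjusted p = 0.895) for aged GW8510 over young vehicle, and -0.44 without aged GW8510 library 3.

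Markers of other cell types were measured in the same libraries. Endothelial markers (15 of 15 tested) summed to 475 to 812 CPM in aged GW8510, 387 to 530 CPM in aged vehicle and 540.1 to 652 CPM in young vehicle libraries. Their fold change was above 0 for 15 of 15 in aged GW8510 over aged vehicle (50.9% of all genes). In aged vehicle over young vehicle it was above 0 for 1 of 15 (51.1%). edgeR called 0 of the 15 in either comparison, and DESeq2 called 0 and 2 (0.0695% and 6.77% of all genes). At an unadjusted edgeR p under 0.05 were 2 and 5 (4.5% and 19.2% of all genes). In these comparisons 10 and 2 of 10 adipocyte, 7 and 0 of 10 fibroblast and 10 and 1 of 12 macrophage markers were above 0. Of the adipocyte markers tested, only Fabp4 and Pparg had every aged GW8510 library above every aged vehicle library. For the others, aged GW8510 libraries 1 and 3 lay below the highest aged vehicle library, and library 4 lay above it. Cfd, for example, had 9.125, 2.61 and 84.8 CPM in aged GW8510 libraries and 12.2, 3.93 and 19.6 CPM in aged vehicle libraries. For slow and oxidative fibre markers the counts were 9 and 9 of 10, and for fast glycolytic ones 5 and 2 of 10. Adipocyte markers (10 of 11 tested) summed to 264 to 401 CPM in aged GW8510, 166 to 209.8 CPM in aged vehicle and 175 to 227 CPM in young vehicle libraries, most of it Fabp4, which endothelial cells also express, at 135 to 366 CPM. Fibroblast markers summed to 315 to 664 CPM in aged GW8510, 146 to 597 CPM in aged vehicle and 1281 to 2753 CPM in young vehicle libraries. Of them Cd34 fell in aged vehicle muscle, with 38.6, 34.5 and 47.0 CPM in aged GW8510 libraries, 24.3, 37.5 and 28.1 CPM in aged vehicle libraries and 69.2, 69.0 and 49.2 CPM in young vehicle libraries and a log2 fold change of -1.06 ± 0.21 (SE, adjusted p = 0.047), a call that was lost in 8 of the 9 omissions of a library (adjusted p from 0.0398 to 0.174). Macrophage markers (12 of 12 tested) summed to 97.8 to 175 CPM in aged GW8510, 81.3 to 165 CPM in aged vehicle and 106 to 298 CPM in young vehicle libraries. Slow and oxidative fibre markers summed to 11420 to 15370 CPM in aged GW8510, 10760 to 18850 CPM in aged vehicle and 8944 to 17260 CPM in young vehicle libraries. Most of that sum was Myh2, a fast oxidative myosin, and Mb, so it says little of the slow-fibre genes. Fast glycolytic fibre markers summed to 101300 to 134700, 95780 to 139700 and 129700 to 166900 CPM in the same order. The part of these cell types in the levels of Cd36, Lpl and Slc27a1 was not tested.

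Of the 36 genes, 15 overlap another annotated gene and 11 overlap 1 on the other strand, Echs1 with Paox and Acadvl with Dvl2 among them. Whether counting used strand is not given in the sources used here, so reads of such partners cannot be told apart. Expected counts of 5 genes (Slc22a5, Acot1, Acot2, Acadvl and Echs1) were fractional in all 9 libraries.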

How the data were processed

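RNA sequencing tables of 9 libraries were used, 3 per group. The authors deposited expected counts per gene and library, not normalized, per the file headers; 91.4% of the values are whole, and they were rounded here before testing. TPM values the authors deposited were used to compare levels between genes and, where named, to show whether an order of libraries in CPM also held. The authors also deposited for each pair of groups the log2 ratio and p-values, raw and adjusted. The submitters' processing notes name the build GRCm38 and CASAVA, HISAT2, StringTie, RSEM, DESeq2 and edgeR, without versions or roles; strandedness is not given in the sources used here.

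Genes were filtered with filterByExpr, scaled by TMM and tested with edgeR 4.0.16 in R 4.3.3 (quasi-likelihood, two-sided, 1 mean per group, no block), after the code was tested on simulated data. Standard errors were obtained by dividing each absolute log2 change by the root of its F statistic. Alternatives were DESeq2 1.42.0, limma 3.58.1 (voom), RLE factors, no filter, 2 groups only, a replicate block, each library left out, and Acot1 and Acot2 summed.

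Totals of 21718930 to 27437937 counts per library limit genes near the floor, and floors cover counting error only. Groups and replicate numbers come from the sample titles. Every one of the 36 genes is named; values in every library are given for genes past the threshold, for the 6 with the smallest p in each comparison and for the gene with the highest TPM of each role. In other lists, up to 2 called genes and Pdk4, Ppara, Ppard and Ppargc1a are named. The genes and lists were chosen with earlier results of these data known. Gene positions and overlaps are from GENCODE M21, and promoter windows from RefSeq (GRCm38.p6), 250 bases long.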

Additional observations from a re-analysis of the deposited data

How the results depend on the processing

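Of the fold changes printed for single genes, 8 changed sign, each when a single library was left out. In aged GW8510 over aged vehicle they were those of Fabp3 (-0.11 to 0.67), Acadl (-0.23 to 0.54) and Plin5 (-0.53 to 0.71). In aged GW8510 over young vehicle they were those of Acot13 (-0.067 to 0.33), Cpt1a (-0.11 to 0.19), Ucp3 (-0.50 to 0.11) and Pdk4 (-0.44 to 0.53), and in aged vehicle over young vehicle that of Ucp3 (-0.15 to 0.19). No pairing of libraries by replicate number was seen. Correlations of same-numbered libraries after removing group means ran from -0.209 to 0.138, and 0 of 6 aged libraries correlated best with their own number. Few libraries per group enter this check, so it cannot exclude pairing. With the replicate block, edgeR called 8 genes in aged GW8510 over young vehicle and 5 in aged vehicle over young vehicle, and 0 of the 36; Slc27a1 had a log2 fold change of 1.44 (adjusted p = 0.119). In aged GW8510 over young vehicle (108 genes called), DESeq2 called 870 genes and 10 of the 36, testing without the filter 553 and 3, the 6 libraries alone 469 and 2, and leaving out single libraries 25 to 594 and 0 to 3. In aged GW8510 over aged vehicle (0 called), DESeq2 called 10 genes, testing without the filter 5, and leaving out single libraries 0 to 2. In aged vehicle over young vehicle (175 called), DESeq2 called 974 genes, testing without the filter 699, the 6 libraries alone 50, and leaving out single libraries 19 to 148. The median over the 36 genes in aged GW8510 over young vehicle was 0.30 to 0.73 with single libraries left out. In aged GW8510 over aged vehicle, as alternatives chosen after seeing the data, 20 of the 36 were above 0 without aged GW8510 library 3 and 32 without aged vehicle library 4 (51.5% of all genes in each), and 7 had non-overlapping libraries without aged vehicle library 4, 6 higher (7.39% of all genes) and 1 lower (6.76%). DESeq2 also called Hadhb, Acat1, Echs1, Eci1, Cd36, Plin2, Etfdh, Acadl and Acot2 in aged GW8510 over young vehicle. The cause of these differences was not tested. Over all alternatives, 6 of the 36 genes changed sign at least once in aged GW8510 over young vehicle, 17 in aged GW8510 over aged vehicle and 9 in aged vehicle over young vehicle. Depth limits Acot1 and Angptl4, which reached 4.11 and 8 counts in their lowest libraries.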

Other observations

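Aged GW8510 library 4 held the highest values of the adipocyte markers other than Fabp4, Pparg and Ucp1. It is a different library from the one that led the fatty acid oxidation genes. Adipoq, the adiponectin gene, stood at 18.7 CPM in aged GW8510 library 4, against 0.491 to 5.92 CPM in the other 8 libraries. Plin1, the droplet coat of adipocytes, stood at 11.3 CPM against 0.0886 to 3.69 CPM, and Retn, the resistin gene, at 7.17 CPM against 0.266 to 2.63 CPM. Of the 36 genes of uptake and oxidation, only Angptl4 was highest in that library, at 5.83 CPM. These are values of 1 library, with no test.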
